A study of Homo sapiens with 8 samples.

Results

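Nascent transcription was compared between senescent human lung fibroblasts depleted of METTL14 and control fibroblasts, with 2 libraries on each side. Every gene row of the deposited count table outside ribosomal RNA was taken, 27924 of 27945 rows, of which 6423 held no count in any of the 8 libraries and 12823 passed the filter on low counts and were tested. All cells were IMR90, a line of human diploid fibroblasts from embryonic lung, grown at 2% oxygen. Control cells carried the label WT and control, with no shRNA named for them. Senescent cells had been driven into arrest by switching on ER:RAS, a fusion of the estrogen receptor with H-RASG12V, and then carried shControl, shMETTL3 or shMETTL14, 2 libraries each. The shRNAs came from lentiviral vectors with puromycin selection. A lone hairpin targeted each gene. Hydroxytamoxifen, RAS activation, viral infection with selection and METTL14 depletion therefore differ together between the shMETTL14 and control groups. They cannot be told apart by that comparison. The senescent shControl libraries share hydroxytamoxifen, RAS activation and infection with the shMETTL14 libraries and are given beside that comparison throughout.

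Oncogene-induced senescence is a stable arrest that follows RAS signalling through ERK, with p53 and CDK inhibitors holding back the cyclin-dependent kinases. Senescent fibroblasts lose lamin B1, remodel their chromatin and begin to secrete cytokines, growth factors and proteases, the senescence-associated secretory phenotype (SASP), much of it under NF-kappaB, C/EBP-beta and AP-1. METTL14 is the partner of the RNA methyltransferase METTL3 in the complex that writes N6-methyladenosine, and the study asked what these proteins do for gene regulation in senescence. The assay, fastGRO-seq, lets engaged RNA polymerases extend in isolated nuclei with a labelled nucleotide, so its reads follow polymerase over whole gene bodies rather than stable mRNA.

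Library totals ran from 14897360 to 20306299 counts, of which 86.2 to 92.5% lay on ribosomal RNA rows, leaving 1513930 to 2048475 counts for other genes. Values below are normalized counts, scaled to the mean effective library size after trimmed-mean (TMM) scaling. No change in total transcription can be read from them. Rows that overlap share reads here, because genes nested on the opposite strand never held more counts than the gene around them in any of 52 such pairs. All 12 fibroblast markers were detected in every library. They summed to 25268 and 23746 in control, 12208 and 14069 under shControl and 8399.7 and 9552.3 under shMETTL14. Leukocyte markers summed to 21.3 and 20.9 in control, 81.6 and 60.1 with shControl and 54.0 and 51.6 with shMETTL14. In the same order of groups, epithelial markers summed to 44.3 and 50.5, 60.3 and 36.7, and 84.0 and 69.5, and endothelial markers to 102.7 and 115.8, 75.7 and 71.2, and 65.0 and 79.0. Of the 10 epithelial, 8 endothelial and 8 leukocyte markers, between 2 and 7 of a list were at 0 in each library, and their part in the results was not tested. METTL14 itself (hg19 chr4:119606525-119633425) had 53.1 and 47.9 normalized counts in control, 28.4 and 31.2 under shControl and 18 and 14.7 under shMETTL14. It was lower with shMETTL14 than in control (log2 fold change -1.62 ± 0.32 SE, adjusted p = 8.48e-05). Every adjusted p here is from edgeR's quasi-likelihood test with Benjamini-Hochberg adjustment. The difference from shControl did not pass (log2 fold change -0.86 ± 0.35 SE, adjusted p = 0.0799). An shRNA acts on finished RNA, so run-on reads do not measure the depletion. METTL3 had 70.8 and 67.9 in control, 91 and 52.3 under shControl and 73 and 59 under shMETTL14, a log2 difference from control of -0.07 that did not pass.

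Senescent shMETTL14 cells had 2551 genes (19.9% of those tested) higher and 2647 (20.6%) lower than control at an adjusted p below 0.05. Senescent shControl cells, set against the same control libraries, had 1712 (13.4%) higher and 1724 (13.4%) lower. In the direct test between the senescent groups, 1197 genes (9.33%) were higher and 1562 (12.2%) lower with shMETTL14. These direct counts were 501 and 824 without shMETTL14 replicate 1, 549 and 931 without shControl replicate 1, and 508 and 874 without shControl replicate 2. The shares over all tested genes given here are the background for the counts of list members below. In 9278 of the 12823 tested genes (72.4%) the shMETTL14 and control libraries did not overlap. Lack of overlap between 2 libraries a side is therefore common. The median log2 fold change over all tested genes was 0.0012 against control. Scaled by library size alone, 37.25% rather than 49.08% of the calls against control were in the higher direction, and 81.71% rather than 43.39% of those against shControl, with the median of all genes shifted to -0.14 and 0.35. For shControl against control the same scaling put 13.01% rather than 49.83% of the calls in the higher direction, with the median at -0.53. The list medians show the 2 ends of the program in the plot of gene lists: cytokine and chemokine genes far to the right, cell division genes far to the left.

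**Figure D1:**
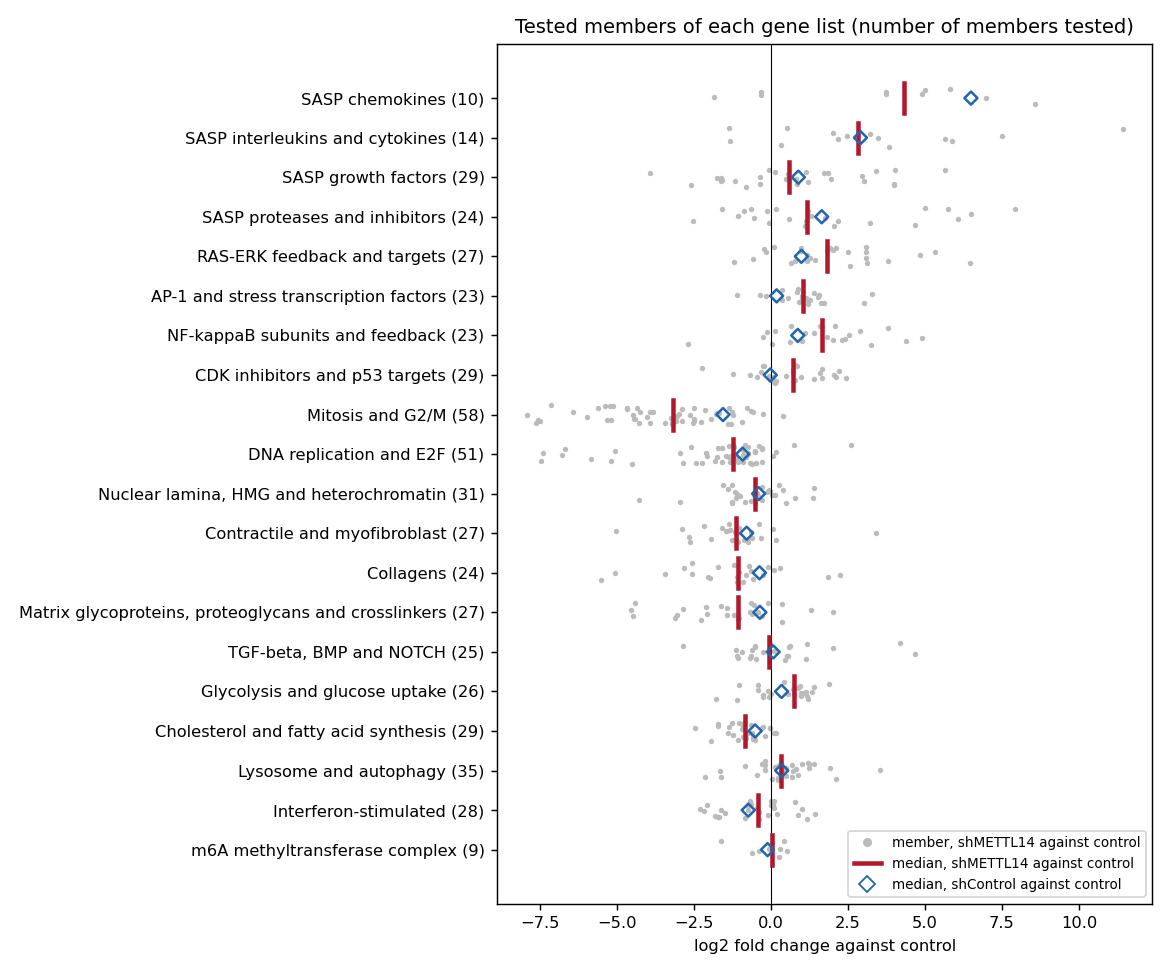
Log2 fold change against control (x axis) of the tested members of 20 gene lists. Grey points are members in shMETTL14 cells, red bars are the list medians in shMETTL14 cells and open blue diamonds are the list medians in shControl cells. The mitosis list has its shMETTL14 median at -3.18 against -1.56 with shControl, whereas the chemokine median is 4.32 against 6.49.

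The cell division program was down in shMETTL14 cells almost to its last member. Of 58 tested genes of mitosis and G2/M, 54 were lower than control and 0 higher, against a background of 20.6% lower. The list median was -3.18, or -2.61 with genes at or near 0 counts set to the floor of 3 counts per library. With shControl 41 were lower and the median was -1.56. MKI67, the proliferation antigen Ki-67 (chr10:129894925-129924468), had 198 and 175 in control, 29.6 and 59 under shControl and 0.999 and 3.16 under shMETTL14. Both shMETTL14 libraries thus sat far below both shControl libraries, themselves below control. The summed counts, 4 with shMETTL14 and 425 in control, give a ratio of 91.0 with an exact 95% counting interval of 35.3 to 335.4 (adjusted p = 6.77e-15). TOP2A, which untangles chromosomes, had 145 and 126 in control, 27.2 and 28.9 under shControl and 0.999 and 3.16 under shMETTL14, a ratio of 66.1 (25.6 to 244.3). FOXM1, the transcription factor of the G2/M genes, had 30.1 and 30.5 in control, 7.09 and 6.68 under shControl and 0 and 0 under shMETTL14, with no read in either shMETTL14 library and so at least 9.85-fold lower than control. In the direct test against shControl 24 of the 58 were lower and 1 higher, and 22 were at or near 0 in either group. With at least 10 counts required in every library, which leaves fewer genes to test, 2 were lower. At an adjusted p below 0.01 the count lower was 14, as when only these groups were fitted. The count lower was 12 without shMETTL14 replicate 1, 13 without shMETTL14 replicate 2, 9 without shControl replicate 2 and 11 in the DESeq2 Wald test. CENPF, a kinetochore protein, had 184 and 194 in control, 30.7 and 61.2 under shControl and 8 and 10.5 under shMETTL14 (log2 fold change -2.31 ± 0.37 SE, adjusted p = 1.65e-05 against shControl). CDK1, the mitotic kinase, and PLK1 were lower than control (adjusted p = 1.26e-05 and 0.00311), and neither passed against shControl (log2 fold change -2.48 ± 1.32 SE, adjusted p = 0.189 for CDK1). The call of PLK1 was lost without control replicate 1 (log2 -2.09) or shMETTL14 replicate 2 (log2 -2.13). In bulk samples fewer dividing cells and less RNA per cell cannot be told apart.

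The start site windows of the mitosis genes are shown because their members moved together and because a short element, the cell cycle homology region (CHR), is known from many of them. Among the 56 members with a window in the RefSeq set (GRCh38.p14, 250 bases before to 50 after the start, first listed start of each gene), 40 (71.4%) held TTTGAA on either strand, against 15.4% of all 27305 genes with a window and 10.2% of tested genes. CCAAT, searched in the same way, was also in 40 of the 56, against 35.7% of all. Capitals mark TTTGAA in the windows of PLK1 (chr16:23678639-23678938, plus strand) and CDK1 (chr10:60778081-60778380, plus strand), both printed 5′ to 3′.
PLK1: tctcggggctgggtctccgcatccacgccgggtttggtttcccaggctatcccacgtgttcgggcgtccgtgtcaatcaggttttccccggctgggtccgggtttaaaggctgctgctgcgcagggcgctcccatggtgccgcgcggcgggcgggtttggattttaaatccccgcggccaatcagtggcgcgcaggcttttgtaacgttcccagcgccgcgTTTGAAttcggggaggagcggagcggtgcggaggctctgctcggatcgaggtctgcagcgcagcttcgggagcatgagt
CDK1: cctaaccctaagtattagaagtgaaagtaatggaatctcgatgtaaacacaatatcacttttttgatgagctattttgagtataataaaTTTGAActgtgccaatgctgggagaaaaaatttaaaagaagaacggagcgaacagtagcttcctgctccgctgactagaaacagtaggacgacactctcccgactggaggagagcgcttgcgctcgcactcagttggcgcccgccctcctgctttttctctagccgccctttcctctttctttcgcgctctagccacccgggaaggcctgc
The match lies close to the transcription start in PLK1 and further upstream in CDK1. A match is a description of letters and no evidence of a bound factor.

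DNA replication and E2F genes fell less evenly. Of 51 tested, 29 were lower and 2 higher than control (median -1.24), beside 23 and 2 with shControl (median -0.92). CDC45, of the replicative helicase, had 15.1 and 28.7 normalized counts in control, 9.46 and 10 under shControl and 0 and 0 under shMETTL14 and was at least 7.13-fold lower than control, and in the direct test it was lower than shControl as well (adjusted p = 0.00116). RRM2, the nucleotide reductase subunit, had 64.6 and 58.3 in control, 10.6 and 15.6 under shControl and 2 and 3.16 under shMETTL14. PCNA and MCM2 did not pass against control. PCNA, the sliding clamp, had 62 and 47.9 in control, 24.8 and 47.9 under shControl and 46 and 44.2 under shMETTL14. MCM2, a helicase subunit, had 27.5 and 27 in control, 10.6 and 17.8 under shControl and 14 and 9.48 under shMETTL14. E2F7, a repressor of E2F targets, ran the other way, with 62 and 73.1 in control, 463 and 424 under shControl and 302 and 524 under shMETTL14, a rise over control (log2 fold change 2.61 ± 0.21 SE, adjusted p = 1.57e-10). Between the senescent groups 9 of the 51 differed, all lower with shMETTL14, where the background was 12.2% lower. The count was 2 with at least 10 counts required in every library, with only these groups fitted or at an adjusted p below 0.01. In the DESeq2 Wald test it was 3. That count was 3 without shMETTL14 replicate 1, 5 without shMETTL14 replicate 2 and 3 without shControl replicate 2.

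Loss of the B-type lamin stood out among the nuclear structure genes. LMNB1 had 73.5 and 72.3 in control, 13 and 16.7 under shControl and 5 and 2.11 under shMETTL14 (log2 fold change -4.30 ± 0.45 SE, adjusted p = 1.19e-09 against control), and shMETTL14 was lower than shControl (log2 fold change -2.02 ± 0.59 SE, adjusted p = 0.013), a call lost without shMETTL14 replicate 2 (log2 -1.55) or shControl replicate 2 (log2 -1.83). HMGB2, a chromatin protein lost in senescence, had 32.8 and 40.9 normalized counts in control, 11.8 and 23.4 under shControl and 5 and 4.21 under shMETTL14, again below both other groups, though against shControl the call was lost without shMETTL14 replicate 1 (log2 -2.06), shMETTL14 replicate 2 (log2 -1.80) or shControl replicate 2 (log2 -1.34), or in the DESeq2 Wald test (log2 -1.94). In the list of lamina, HMG and heterochromatin genes 17 of 31 were lower and 4 higher than control (median -0.51), compared with 9 and 3 with shControl, and 11 were lower without shMETTL14 replicate 2. TMPO, a lamina-associated protein, had the largest fall among members with at least 50 counts (log2 fold change -1.54 ± 0.23 SE, adjusted p = 1.23e-06). EZH2, the H3K27 methyltransferase, was lower than control in either senescent group, at 85 and 94 in control, 36.6 and 39 under shControl and 38 and 35.8 under shMETTL14. HMGA1 and HMGA2, architectural factors of senescence-associated heterochromatin, rose instead. HMGA1 had 376 and 347 in control, 598 and 592 under shControl and 1039 and 825 under shMETTL14. HMGA2 had 1941 and 2041 in control, 5366 and 4988 under shControl and 3005 and 3759 under shMETTL14.

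Of 29 tested CDK inhibitors and p53 targets, 14 were higher and 4 lower than control (median 0.71), whereas shControl had 5 higher and 6 lower (median -0.02). The direct test put 14 of the 29 above shControl and 0 below, where the background was 9.33% higher and 12.2% lower. CDKN1A, which encodes p21 (chr6:36644237-36655116), had 406 and 371 in control, 858 and 828 under shControl and 1816 and 1577 under shMETTL14, so the 3 groups did not overlap. Its log2 fold change was 2.13 over control and log2 fold change 1.01 ± 0.14 SE, adjusted p = 1.07e-06 over shControl. GADD45A, a stress and DNA damage gene, had 65.5 and 51.4 in control, 65 and 79 under shControl and 184 and 186 under shMETTL14, above both other groups (log2 fold change 1.36 ± 0.21 SE, adjusted p = 1.14e-05 against shControl). MDM2, the p53 ubiquitin ligase that p53 itself switches on, had 546 and 573 normalized counts in control, 456 and 403 under shControl and 756 and 821 under shMETTL14. For MDM2 the shControl libraries were below control (log2 -0.38) and the shMETTL14 libraries above it (log2 0.50), the second call being lost without control replicate 1 (log2 0.46) or with scaling by library size alone (log2 0.35). The lower value with shControl did not pass without any 1 of the 4 libraries compared or in the DESeq2 Wald test. CDKN2B, encoding p15, was raised in either senescent group, with 31.9 and 33.1 in control, 167 and 157 under shControl and 145 and 206 under shMETTL14. It shares reads with the antisense gene that spans it. CDKN2A, the p16 gene, had 32.8 and 43.5 in control, 59.1 and 49 under shControl and 43 and 43.2 under shMETTL14, and no comparison of it passed. CDKN2C, the p18 gene, was below the filter for the test, with 8.86 and 13.9 in control, 2.36 and 1.11 under shControl and 0 and 1.05 under shMETTL14.

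**Figure D2:**
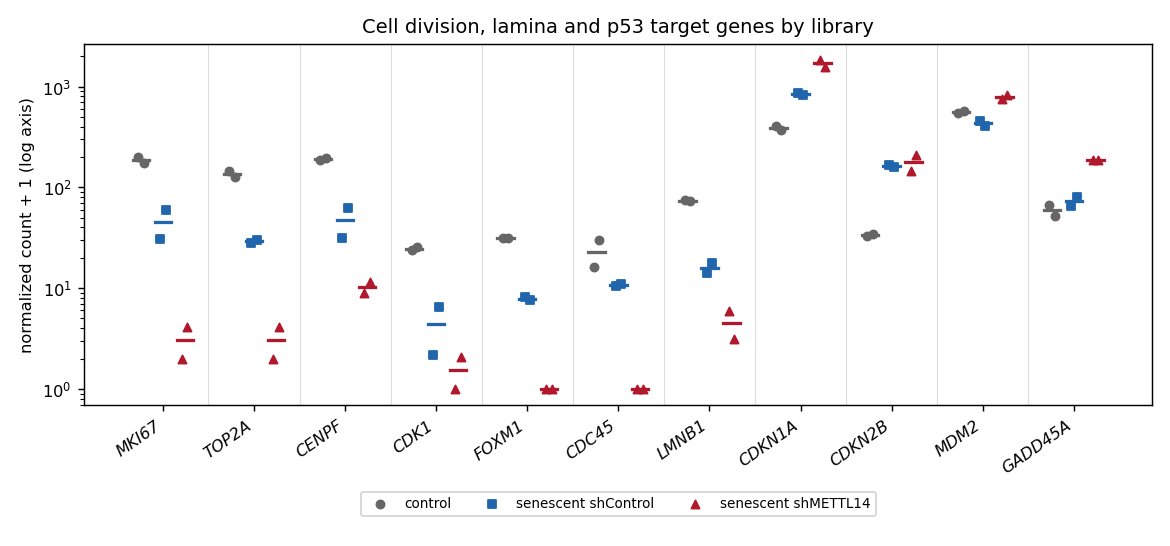
Normalized count plus 1 on a log axis for cell division, lamina and p53 target genes, with 2 libraries per group as points and the mean as a bar. MKI67, TOP2A and LMNB1 step down from control to shControl to shMETTL14, while CDKN1A steps up.

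NF-kappaB genes were among those raised beyond the level of shControl. NFKBIA and TNFAIP3 encode inhibitors that NF-kappaB switches on against itself, and the list also holds its subunits and ICAM1. Of 23 tested, 17 were higher and 1 lower than control (median 1.65), beside 12 and 1 with shControl (median 0.87). Directly compared, 14 of the 23 were higher with shMETTL14 than with shControl and 1 lower, where the background was 9.33% higher. The count higher was 8 without shMETTL14 replicate 1 and 9 without shControl replicate 1. TNFAIP3, encoding A20 (chr6:138188325-138204451), had 23 and 34.8 in control, 149 and 147 under shControl and 964 and 780.3 under shMETTL14, which is the largest rise of the list (log2 fold change 4.91 ± 0.20 SE, adjusted p = 3.51e-19 against control and log2 fold change 2.56 ± 0.17 SE, adjusted p = 2.70e-13 against shControl). NFKBIA, encoding I-kappaB-alpha, had 38.1 and 28.7 in control, 63.8 and 81.2 under shControl and 277 and 214 under shMETTL14 (log2 fold change 1.75 ± 0.24 SE, adjusted p = 8.79e-06 against shControl). Neither gene's shMETTL14 libraries overlapped those of the other groups. Among the subunits, NFKB1 had 152 and 147 normalized counts in control, 264 and 220.4 under shControl and 763 and 706 under shMETTL14 and NFKB2 41.6 and 34 in control, 62.7 and 70.1 under shControl and 126 and 112 under shMETTL14. RELB, the partner of NFKB2's product, had 35.4 and 28.7 in control, 23.6 and 27.8 under shControl and 86 and 82.1 under shMETTL14, with no rise in shControl. The apoptosis inhibitor BIRC3 had 14.2 and 18.3 in control, 68.6 and 43.4 under shControl and 176 and 134 under shMETTL14, and the adhesion receptor ICAM1 86.8 and 85.3 in control, 515 and 462 under shControl and 1324 and 1058 under shMETTL14. In each of these the shMETTL14 pair was the highest. Not every target took part: VCAM1, the other adhesion receptor, had 90.3 and 69.7 in control, 22.5 and 14.5 under shControl and 12 and 12.6 under shMETTL14 and SOD2, the mitochondrial superoxide dismutase, had 1173 and 1263 normalized counts in control, 1394 and 1323 under shControl and 1125 and 1109.9 under shMETTL14 with no comparison passing.

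The kappaB motif is shown in 3 windows, to set the raised inhibitors beside a chemokine that went the other way. The motif was in 9 (40.9%) of the 22 NF-kappaB list members with a window and in 8 of 16 chemokine members, against 10.8% of all genes with a window and 12.6% of tested genes. Capitals mark its matches on either strand in TNFAIP3 (chr6:137867009-137867308, plus strand), NFKBIA (chr14:35404700-35404999, minus strand) and CXCL1 (chr4:73869143-73869442, plus strand), from the same RefSeq set and written along the gene.
TNFAIP3: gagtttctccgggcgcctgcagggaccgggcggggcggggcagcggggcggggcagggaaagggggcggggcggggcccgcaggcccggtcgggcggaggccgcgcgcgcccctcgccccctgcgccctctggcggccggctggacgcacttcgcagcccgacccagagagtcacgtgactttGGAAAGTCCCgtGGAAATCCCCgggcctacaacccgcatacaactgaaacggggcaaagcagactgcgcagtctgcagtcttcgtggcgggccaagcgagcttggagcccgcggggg
NFKBIA: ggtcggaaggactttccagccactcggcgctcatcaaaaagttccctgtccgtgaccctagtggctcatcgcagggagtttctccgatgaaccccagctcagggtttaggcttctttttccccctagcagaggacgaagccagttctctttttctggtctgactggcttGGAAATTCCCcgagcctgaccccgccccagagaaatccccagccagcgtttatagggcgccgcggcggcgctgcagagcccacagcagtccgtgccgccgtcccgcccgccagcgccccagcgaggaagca
CXCL1: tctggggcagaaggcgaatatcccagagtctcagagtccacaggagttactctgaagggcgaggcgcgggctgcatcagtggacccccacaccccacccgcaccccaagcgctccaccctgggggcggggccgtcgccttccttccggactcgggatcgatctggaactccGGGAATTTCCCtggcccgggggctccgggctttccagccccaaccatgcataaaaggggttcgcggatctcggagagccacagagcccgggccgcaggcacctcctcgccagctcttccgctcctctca
TNFAIP3 holds 2 separate matches and NFKBIA 1, and the capital run of CXCL1 is a pair of matches that overlap on opposite strands. Against shControl TNFAIP3 and NFKBIA were higher and CXCL1 lower, so a match of this motif goes with either direction among these genes.

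ERK-responsive genes and AP-1 factors followed. Of 27 tested genes of RAS-ERK feedback and targets, 22 were higher and 2 lower than control (median 1.82), beside 19 and 1 with shControl (median 0.99). DUSP5, a nuclear ERK phosphatase, had 65.5 and 73.1 in control, 371 and 339 under shControl and 634 and 533 under shMETTL14, and SPRY2, a feedback inhibitor of receptor signalling, 32.8 and 29.6 in control, 193 and 177 under shControl and 292 and 249 under shMETTL14, both above shControl (adjusted p = 2.11e-04 and 0.0144), the latter lost without shMETTL14 replicate 1 (log2 0.41), shControl replicate 1 (log2 0.61) or shControl replicate 2 (log2 0.48), or in the DESeq2 Wald test (log2 0.55). EGR1, an immediate early factor, had 109 and 81.9 in control, 182 and 194 under shControl and 617 and 521 under shMETTL14 (log2 fold change 1.60 ± 0.16 SE, adjusted p = 2.51e-09 against shControl). FOSL1, an AP-1 subunit, had 153 and 127 in control, 87.5 and 121 under shControl and 353 and 325 under shMETTL14, and here shControl was not above control. DUSP6, the cytoplasmic ERK phosphatase, took the opposite course, with 48.7 and 49.6 in control, 492 and 484 under shControl and 177 and 193 under shMETTL14, above control but below shControl (log2 fold change -1.40 ± 0.14 SE, adjusted p = 1.80e-09). In the direct test 11 of the 27 were higher with shMETTL14 and 4 lower, and 7 were higher without shMETTL14 replicate 1, shControl replicate 1 or shControl replicate 2. Without shMETTL14 replicate 1, 2 were lower. The list of AP-1 and stress factors had 16 of 23 higher and 1 lower than control (median 1.05), against 5 and 1 with shControl (median 0.18), and 10 of the 23 were higher and 0 lower in the direct test, or 5 higher without shControl replicate 2 and 18 with scaling by library size alone. ATF3, a stress-induced repressor and activator, had 15.9 and 9.58 normalized counts in control, 43.7 and 33.4 under shControl and 116 and 92.7 under shMETTL14 (log2 fold change 1.44 ± 0.25 SE, adjusted p = 5.43e-05 against shControl). JUN had 186 and 204 in control, 337 and 304 under shControl and 474 and 424 under shMETTL14. CEBPB, a driver of SASP genes, had 54.9 and 34.8 in control, 67.4 and 75.7 under shControl and 111 and 123 under shMETTL14. Its row shares reads with one overlapping most of it. CEBPD fell below control (log2 fold change -1.10 ± 0.39 SE, adjusted p = 0.022, lost without control replicate 2 at log2 -0.87 or shMETTL14 replicate 1 at log2 -0.82, and in the DESeq2 Wald test at log2 -1.10).

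**Figure D3:**
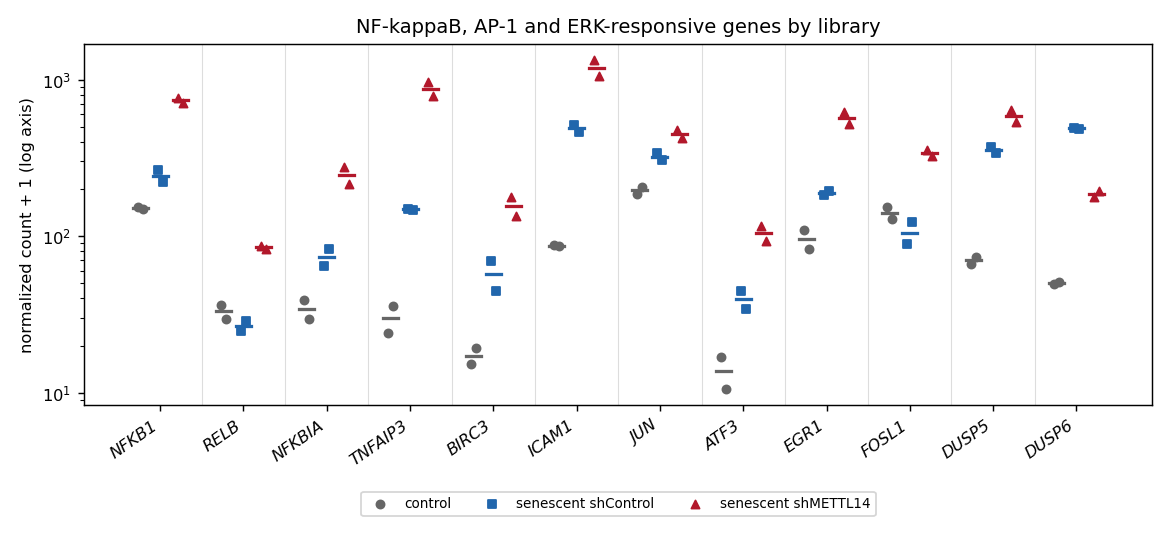
Normalized count plus 1 on a log axis for NF-kappaB, AP-1 and ERK-responsive genes, with 2 libraries per group as points and the mean as a bar. The shMETTL14 libraries are the highest for TNFAIP3, NFKBIA, NFKB1, EGR1 and ATF3, and DUSP6 is highest with shControl.

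The secretory genes split 3 ways. Chemokines were still far above control but mostly well below shControl. The list has 21 members, of which 10 were tested. A gene nearly absent from control could pass the filter only through senescent libraries where it was high, which favours higher calls. Of the 10 tested, 7 were higher than control and 1 lower (median 4.32, or 3.75 with genes at or near 0 set to the floor). With shControl 9 were higher and 1 lower (median 6.49, or 5.29 with such genes set to the floor). Directly compared, 6 of the 10 were lower with shMETTL14 and 1 higher. When at least 10 counts were required in every library, which leaves fewer genes to test, 1 was lower. CXCL8, interleukin 8, had 33.7 and 35.7 in control, 5197 and 4456 under shControl and 1103 and 959 under shMETTL14 (log2 fold change 4.89 ± 0.19 SE, adjusted p = 2.09e-20 against control and log2 fold change -2.23 ± 0.15 SE, adjusted p = 1.37e-13 against shControl). CXCL1 had 9.74 and 7.84 in control, 998 and 830.2 under shControl and 131 and 107 under shMETTL14 and CXCL5 5.31 and 4.35 in control, 2839.7 and 2408 under shControl and 37 and 96.9 under shMETTL14. These neutrophil chemokines therefore stood between the other groups, with no overlap. CCL20, which attracts CCR6-bearing lymphocytes, was the member above shControl, with 0 and 0.871 normalized counts in control, 123 and 110.2 under shControl and 243 and 185 under shMETTL14 (log2 fold change 0.88 ± 0.19 SE, adjusted p = 6.13e-04), a call lost without shMETTL14 replicate 1 (log2 0.65). Its control libraries held 1 count in all, which puts the ratio to control at 489 with a counting interval of 87.3 to 19370. CCL2, a monocyte chemokine, had 58.4 and 48.8 in control, 27.2 and 31.2 under shControl and 45 and 40 under shMETTL14 and did not differ from control by the test. CXCL12 was below the filter, with 11.5 and 8.71 in control, 2.36 and 4.45 under shControl and 0 and 0 under shMETTL14.

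Among interleukins and other cytokines 11 of 14 were higher and 1 lower than control (median 2.84, or 2.31 with genes at or near 0 set to the floor), beside 8 and 2 with shControl (median 2.90). The list has 21 members, and members near 0 in control could pass the filter only through senescent libraries. CSF3, encoding G-CSF (chr17:38171614-38174066), had 0 and 0 in control, 342 and 283 under shControl and 374 and 312 under shMETTL14. The senescent groups overlapped and did not differ by the test (log2 fold change 0.14 ± 0.17 SE, adjusted p = 0.619), and both were at least 118-fold above control. LIF had 199 and 129 in control, 635 and 545 under shControl and 701 and 617 under shMETTL14 and GDF15, a stress cytokine, 27.5 and 41.8 in control, 572 and 512 under shControl and 508 and 475 under shMETTL14, each likewise kept close to shControl (log2 fold change 0.16 ± 0.16 SE, adjusted p = 0.528 and log2 fold change -0.14 ± 0.16 SE, adjusted p = 0.581). IL1B, in contrast, had 1.77 and 2.61 normalized counts in control, 2555 and 2436 under shControl and 459 and 375 under shMETTL14, a ratio to control of 190.4 (counting interval 81.2 to 587.9) and log2 fold change -2.58 ± 0.15 SE, adjusted p = 3.19e-15 against shControl. IL1A, the membrane-bound form that acts upstream of many SASP genes, was lowered less, with 1.77 and 4.35 in control, 253 and 240.4 under shControl and 159.9 and 159 under shMETTL14. IL6 had 6.2 and 14.8 in control, 240.0 and 199 under shControl and 136 and 100.04 under shMETTL14. IL11, its fibroblast relative, had 13.3 and 6.97 in control, 280.2 and 264 under shControl and 112 and 76.9 under shMETTL14. Both lay below shControl and above control. Against shControl the call of IL6 was lost without shControl replicate 1 (log2 -0.75), and that of IL1A without shControl replicate 1 (log2 -0.59) or shMETTL14 replicate 1 (log2 -0.65). CSF2, encoding GM-CSF, kept only a trace, with 0 and 0 in control, 86.3 and 86.8 under shControl and 6 and 8.42 under shMETTL14. IL15 was the member that fell below control (log2 fold change -1.35 ± 0.26 SE, adjusted p = 6.94e-05), by a like amount with shControl (log2 -1.63). In the direct test 6 of the 14 were lower, 3 higher and 5 did not pass. With scaling by library size alone 6 were higher. When at least 10 counts were required in every library, which leaves fewer genes to test, 1 was lower and 1 higher. Without shControl replicate 1, 3 were lower, and without shControl replicate 2, 1 was higher.

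Of 29 tested growth factor genes, 15 were higher and 8 lower than control (median 0.59), beside 17 and 6 with shControl (median 0.89). The background was 19.9% higher and 20.6% lower than control, and 9.33% higher and 12.2% lower than shControl. Directly compared, 16 were lower with shMETTL14, 3 were higher and 10 did not pass, with 1 higher without shMETTL14 replicate 1 or shControl replicate 1. EREG, epiregulin, had 62.9 and 78.4 in control, 1155 and 996 under shControl and 1213 and 1034 under shMETTL14 (log2 fold change 3.99 ± 0.17 SE, adjusted p = 1.89e-19 against control and log2 fold change 0.06 ± 0.14 SE, adjusted p = 0.795 against shControl). HBEGF had 7.97 and 8.71 normalized counts in control, 72.1 and 69 under shControl and 101 and 79 under shMETTL14, also with no difference from shControl that passed. INHBA, the activin A subunit, whose row is overlapped by another, had 116 and 109 in control, 1919.9 and 1765 under shControl and 879 and 851 under shMETTL14 and BMP2 27.5 and 20 in control, 612 and 544 under shControl and 189.9 and 198 under shMETTL14. STC1, a secreted glycoprotein hormone, had the largest rise over control among members with at least 50 counts, with 129 and 104 in control, 3973 and 3478 under shControl and 1797 and 2046 under shMETTL14. These remained raised at lower levels than with shControl. FGF2 was closer to control, with 230.2 and 267 in control, 1869 and 1709 under shControl and 454 and 444 under shMETTL14, and VEGFA had 72.6 and 61 in control, 336 and 298 under shControl and 143 and 164 under shMETTL14. IGFBP5, an IGF binding protein, reversed: it had 4562 and 4139.8 normalized counts in control, 7278 and 6917 under shControl and 1193 and 1636 under shMETTL14, above control with shControl, a call lost with scaling by library size alone (log2 0.21), and below it with shMETTL14 (log2 fold change -1.62 ± 0.15 SE, adjusted p = 6.81e-11). HGF and FGF7, paracrine factors for epithelium, were lower than control in either senescent group. HGF had 692 and 717 in control, 472 and 501 under shControl and 254 and 372 under shMETTL14. FGF7, which lies inside another row, had 433 and 559 in control, 177 and 154 under shControl and 87 and 74.8 under shMETTL14.

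Of 24 tested proteases and inhibitors, 15 were higher and 5 lower than control (median 1.17, or 1.11 with genes at or near 0 set to the floor), beside 16 and 4 with shControl (median 1.65). Against shControl 11 were lower and 3 higher, with 1 higher without shMETTL14 replicate 1, shControl replicate 1 or shControl replicate 2. MMP1, interstitial collagenase, had 70.8 and 59.2 in control, 10909.5 and 9590.1 under shControl and 6073 and 5632 under shMETTL14, though it lies wholly within the row WTAPP1, whose counts follow it. MMP3, stromelysin 1, had 1.77 and 2.61 in control, 6598 and 5993 under shControl and 604 and 532 under shMETTL14 (log2 fold change -3.47 ± 0.15 SE, adjusted p = 1.35e-18 against shControl), a ratio to control of 259 (counting interval 110.7 to 799.4). MMP10, its close homologue, had 0 and 0 in control, 275 and 248 under shControl and 8 and 5.27 under shMETTL14, so that only a trace was left. SERPINB2, the plasminogen activator inhibitor PAI-2, was kept, with 27.5 and 29.6 normalized counts in control, 1912 and 1667 under shControl and 2139.9 and 1716 under shMETTL14 (log2 fold change 0.11 ± 0.13 SE, adjusted p = 0.618 against shControl). The urokinase receptor PLAUR had 46.9 and 44.4 in control, 221 and 227 under shControl and 199 and 180.1 under shMETTL14, also without a difference from shControl that passed. Urokinase itself, PLAU, was slightly lower than with shControl, at 827 and 832 in control, 2993 and 2665 under shControl and 1921 and 1933 under shMETTL14 (lost without shControl replicate 1 at log2 -0.47), and its row lies within another. PLAT, tissue plasminogen activator, spanned the control range with widely spaced shMETTL14 libraries, at 405 and 372 in control, 2311 and 1975 under shControl and 213 and 535 under shMETTL14. TIMP3, an inhibitor of metalloproteases whose row lies within another, had 872 and 862 in control, 254 and 334 under shControl and 841 and 740.3 under shMETTL14, below control with shControl alone. Scaled by library size alone, 6 of the proteases and inhibitors were higher than shControl. With that scaling the lower values of IL1A and PLAU against shControl no longer passed the test, nor did that of IL1A in the DESeq2 Wald test.

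**Figure D4:**
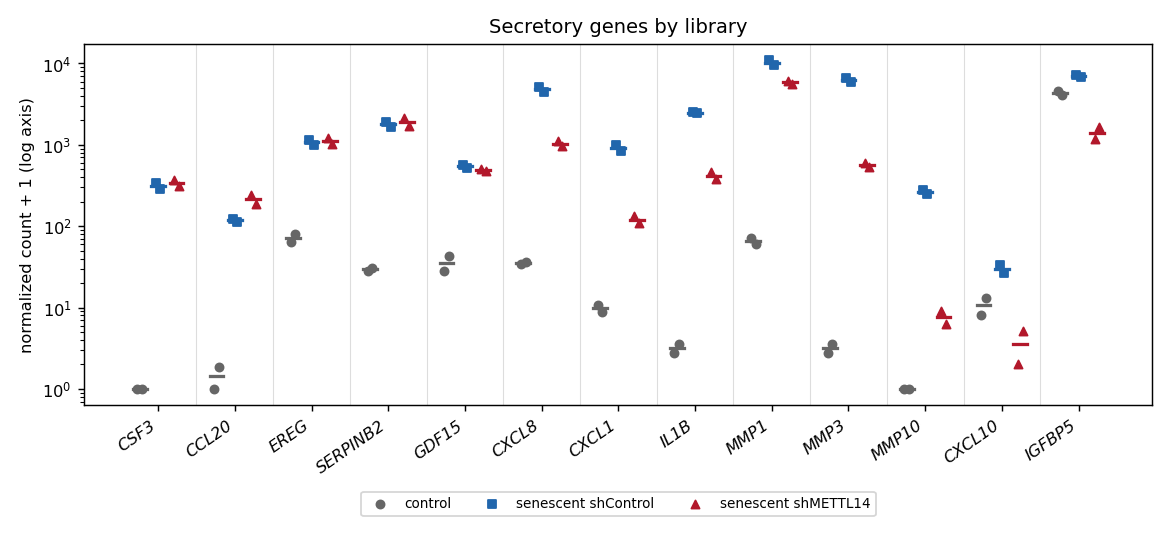
Normalized count plus 1 on a log axis for secretory genes, with 2 libraries per group as points and the mean as a bar. CSF3, EREG, SERPINB2 and GDF15 lie together in the senescent groups, CXCL8, CXCL1, IL1B, MMP1 and MMP3 lie between control and shControl with shMETTL14, and CXCL10 and IGFBP5 lie below control.

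Structural genes of the fibroblast went down further with shMETTL14. Of 24 collagens, 18 were lower and 2 higher than control (median -1.07), beside 12 and 4 with shControl (median -0.38). In the direct test 16 of the 24 were lower with shMETTL14 and 1 higher, where the background was 12.2% lower. COL1A2, a chain of type I collagen, had 6678 and 6424 in control, 1935 and 2563 under shControl and 699.6 and 1153 under shMETTL14 (log2 fold change -2.82 ± 0.19 SE, adjusted p = 1.80e-11 against control). COL3A1 had 2721 and 2688 normalized counts in control, 597 and 891 under shControl and 178 and 316 under shMETTL14 and COL1A1 8631 and 7604 in control, 2481 and 3294 under shControl and 1762 and 2155 under shMETTL14. Each of the 3 stepped down from group to group without overlap, though COL1A1 no longer differed from shControl by the test when scaled by library size alone or without shMETTL14 replicate 1 (log2 -0.44) or shControl replicate 2 (log2 -0.35), and COL3A1 when only the libraries of these groups were fitted (log2 -1.61). COL6A3, a type VI chain, did not differ by the test between shControl and control, with 11022 and 10196 in control, 9815 and 9721 under shControl and 2885 and 3546 under shMETTL14, and was lower with shMETTL14 (log2 fold change -1.60 ± 0.15 SE, adjusted p = 3.90e-10 against shControl). COL15A1, a basement membrane collagen, had the largest fall, with 108 and 94 in control, 9.46 and 22.3 under shControl and 0.999 and 3.16 under shMETTL14, a ratio of 49.2 (counting interval 19.0 to 182.2). The matrix glycoprotein list had 18 of 27 lower and 2 higher than control (median -1.09), and 15 lower and 0 higher than shControl. DCN, the collagen-binding proteoglycan decorin, had 757 and 724 in control, 122 and 219 under shControl and 30 and 35.8 under shMETTL14 (log2 fold change -4.49 ± 0.21 SE, adjusted p = 7.69e-16). THBS1, thrombospondin 1, had 3246 and 3159 in control, 1626 and 1705 under shControl and 292 and 595 under shMETTL14 and POSTN, periostin, 305 and 316 normalized counts in control, 288 and 256 under shControl and 78 and 153 under shMETTL14. TNC, tenascin C, rose instead, with 1248 and 1169 in control, 3876 and 3593 under shControl and 3116 and 2862 under shMETTL14, as it did with shControl. Of 11 tested fibroblast markers, 10 were lower and 1, the intermediate filament gene VIM, higher than control (log2 fold change 0.43 ± 0.13 SE, adjusted p = 0.00913, lost without control replicate 1 at log2 0.45 or control replicate 2 at log2 0.42, and with scaling by library size alone at log2 0.29). Of the 12 markers, 6 are also members of the collagen and matrix lists. Whether the loss reflects cell composition was not tested.

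Contractile genes were lower as well: 23 of 27 against 1 higher (median -1.15), beside 20 and 0 with shControl (median -0.79, or -0.65 with 1 gene at or near 0 set to the floor). MYLK, myosin light chain kinase, had 3990.3 and 3767 in control, 1408 and 1756 under shControl and 581 and 681 under shMETTL14, lower than shControl too (log2 fold change -1.33 ± 0.14 SE, adjusted p = 9.82e-09). LMOD1, an actin nucleator of smooth muscle, had 120.4 and 89.7 in control, 26 and 41.2 under shControl and 3 and 3.16 under shMETTL14. ACTA2, smooth muscle actin, had 227 and 259 in control, 102 and 141 under shControl and 90 and 86.4 under shMETTL14. TAGLN, partly overlapped by another row, had 416 and 411 in control, 93.4 and 156 under shControl and 174 and 134 under shMETTL14. For neither did the senescent groups differ by the test. In the direct test 10 of the 27 were lower and 3, CTGF, CYR61 and ANKRD1, were higher than with shControl. Without shControl replicate 2 or with scaling by library size alone 5 were lower. CTGF had 544 and 472 normalized counts in control, 219.9 and 244 under shControl and 412 and 359 under shMETTL14. CYR61 had 255 and 238 in control, 162 and 162 under shControl and 295 and 254 under shMETTL14, and ANKRD1 had 3.54 and 0.871 in control, 1.18 and 0 under shControl and 32 and 16.8 under shMETTL14 (adjusted p = 2.31e-04, 3.15e-04 and 5.68e-05 against shControl, in that order). ANKRD1 was the list member above control. Of 25 TGF-beta, BMP and NOTCH genes 7 were higher and 9 lower than control (median -0.06), with SMAD3, the TGF-beta transducer, lower (log2 fold change -1.14 ± 0.14 SE, adjusted p = 3.28e-08) and ID1, a BMP target, higher (log2 fold change 2.01 ± 0.39 SE, adjusted p = 7.76e-05). HEY1, a NOTCH target, had 0 and 0 in control, 15.4 and 14.5 under shControl and 0.999 and 5.27 under shMETTL14.

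**Figure D5:**
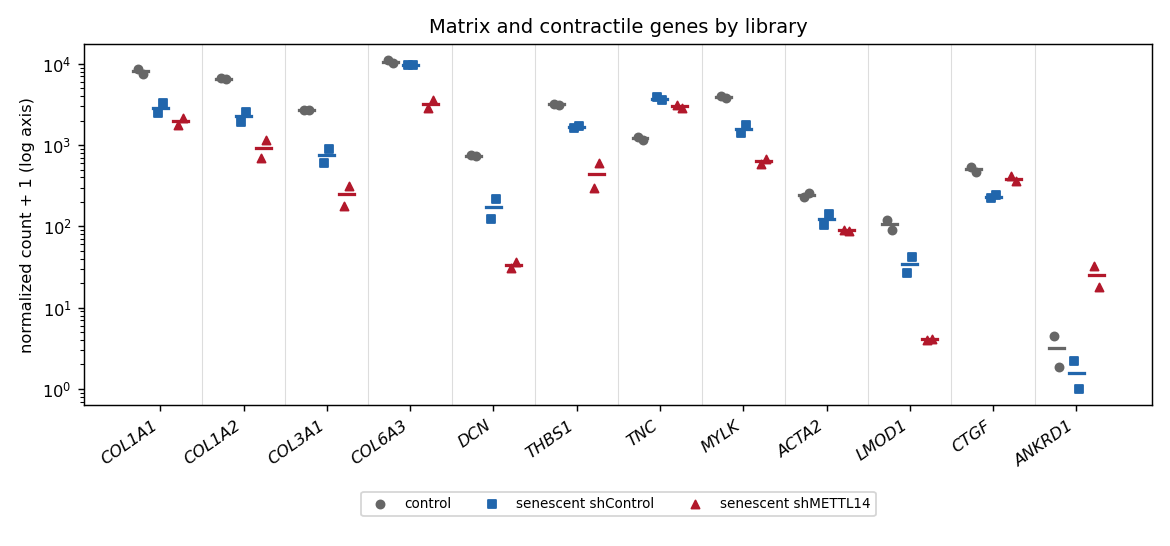
Normalized count plus 1 on a log axis for matrix and contractile genes, with 2 libraries per group as points and the mean as a bar. COL1A2, COL3A1, DCN, THBS1 and MYLK step down from control to shControl to shMETTL14, while TNC is raised in the senescent groups and ANKRD1 with shMETTL14.

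Glycolysis genes were higher in 16 of 26 and lower in 3 (median 0.74), beside 13 and 2 with shControl (median 0.34). For this list and those that follow, the background against control was 19.9% higher and 20.6% lower. HK2, the inducible hexokinase, had 62.9 and 54 in control, 729 and 556 under shControl and 209 and 225 under shMETTL14, well below shControl (log2 fold change -1.57 ± 0.15 SE, adjusted p = 5.01e-10) though above control. LDHA, lactate dehydrogenase, had 246 and 281 in control, 521 and 503 under shControl and 638 and 513 under shMETTL14 and the glucose transporter gene SLC2A3 80.6 and 78.4 normalized counts in control, 102 and 144 under shControl and 223 and 197 under shMETTL14. SLC2A1, the transporter GLUT1, was lower than control. In the cholesterol and fatty acid list 19 of 29 were lower and 0 higher (median -0.84), beside 12 and 0 with shControl (median -0.52). SCD, the stearoyl-CoA desaturase, had 835 and 823 in control, 226 and 336 under shControl and 293 and 340.1 under shMETTL14 and FADS2 428 and 405 in control, 131 and 183 under shControl and 59 and 91.6 under shMETTL14. Lysosome and autophagy genes were higher in 17 of 35 and lower in 4 (median 0.32), beside 13 and 1 (median 0.35). CTSB, cathepsin B, had 943 and 872 in control, 2098 and 1973 under shControl and 2091 and 2208 under shMETTL14, higher than control in either senescent group, and NPC1, which exports cholesterol from lysosomes, 61.1 and 64.4 in control, 194 and 218 under shControl and 269 and 275 under shMETTL14. GLB1, the enzyme behind the beta-galactosidase stain of senescence, rose modestly (log2 fold change 0.44 ± 0.17 SE, adjusted p = 0.0318), a call lost without control replicate 1 (log2 0.50), control replicate 2 (log2 0.39) or shMETTL14 replicate 1 (log2 0.38), in the DESeq2 Wald test (log2 0.45) and with scaling by library size alone (log2 0.30). Interferon-stimulated genes had 4 of 28 higher and 11 lower (median -0.42), beside 1 and 8 with shControl (median -0.74). STAT2, a subunit of the interferon-activated factor, had 256 and 247 in control, 143 and 127 under shControl and 65 and 79 under shMETTL14. Without control replicate 1, control replicate 2 or shMETTL14 replicate 1, 6 interferon-stimulated genes were lower. Of the 9 genes of the m6A methyltransferase complex 1 was higher than control (VIRMA), 2 were lower (METTL14 and ZC3H13) and 6 did not pass, which is not far from the background. VIRMA lost its call without any of the 4 libraries compared (log2 0.37 to 0.49), in the DESeq2 Wald test (log2 0.42), with scaling by library size alone (log2 0.28) or by the upper quartile (log2 0.39) and with at least 10 counts required in every library (log2 0.38), and ZC3H13 without shMETTL14 replicate 1 (log2 -0.49).

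The largest changes were taken from 2131 called genes that averaged at least 100 counts and did not overlap between shMETTL14 and control. Of all tested genes, 72.4% did not overlap in this way. On the rising side stood CSF3, LINC02154, CCL20, MMP3, IL1B, WTAPP1, MMP1, TNFSF15, SERPINB2 and NTNG1. TNFSF15, a TNF family cytokine, had 14.2 and 4.35 normalized counts in control, 2305 and 2024 under shControl and 653 and 793 under shMETTL14, and the long noncoding RNA gene LINC02154 0 and 0.871 in control, 82.8 and 47.9 under shControl and 237 and 231 under shMETTL14, the latter above shControl (log2 fold change 1.85 ± 0.22 SE, adjusted p = 2.47e-07). NTNG1, encoding netrin G1, had 5.31 and 9.58 in control, 394 and 324 under shControl and 475 and 420.2 under shMETTL14, and the senescent groups did not differ by the test. The falling side held MKI67, TOX, CHRM2, CEMIP, MRVI1, PCDH18, LOC349160, ANLN, DCN and FBLN1. CEMIP, a hyaluronan-degrading protein, had 766 and 756 in control, 258 and 314 under shControl and 9.99 and 33.7 under shMETTL14 (log2 fold change -5.13 ± 0.25 SE, adjusted p = 3.13e-14). PCDH18, a protocadherin, had 631 and 722 in control, 199 and 246 under shControl and 9 and 39 under shMETTL14. CHRM2, a muscarinic receptor gene that overlaps LOC349160, had 756 and 703 in control, 138 and 193 under shControl and 7 and 28.4 under shMETTL14. FBLN1, the matrix protein fibulin 1, had 318 and 307 normalized counts in control, 54.4 and 85.7 under shControl and 12 and 16.8 under shMETTL14. All 10 falling genes were also lower than shControl, although the call of MRVI1 was lost when only the libraries of these groups were fitted (log2 -2.77) or without the shMETTL3 libraries, and in CEMIP, PCDH18 and CHRM2 the shMETTL14 libraries lay wide apart while both stayed below every other library shown. The 10 were picked for low values in the same shMETTL14 libraries, which favours a lower value against shControl too.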

How the data were processed

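Nuclear run-on RNA was sequenced with fastGRO-seq in 8 libraries, 2 for each of 4 groups, and 4 libraries enter the comparison described here. Groups were taken from the sample labels. The authors aligned reads with STAR to hg19 and deposited raw counts per gene row over the whole gene body. The file header names HOMER with strand-specific counting, yet nested genes of opposite strand shared reads, so overlapping rows are not separable. A Drosophila spike-in named in the study's methods was not used here.

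Counts were analysed with edgeR 4.0.16 in R 4.3.3: rows passed filterByExpr with a minimum count of 10, libraries were TMM-scaled, and a quasi-likelihood fit with robust dispersion over all 4 groups gave Benjamini-Hochberg adjusted p-values, called below 0.05. The SE of a log2 fold change is its size divided by the root of the F statistic. The 21 ribosomal RNA rows entered scaling and were left out of every count. A gene at or near 0 in a group passed the filter only through groups where it was higher, which favours calls in that direction. Folds against a group at 0 use a floor of 3 counts per library, and ratios against a group with few counts carry an exact 95% interval, which covers counting error only. DESeq2 1.42.0 was an alternative. On data simulated for the shMETTL14 and control comparison over 12383 genes, edgeR recovered 134 of 200 genes changed by a log2 of 1 with 4 unchanged genes called, and DESeq2 93 with 1. The changed genes were drawn without those of lowest count, rose and fell equally often, and all others were equal between groups. In the real data 40.5% of genes were called, so these rates do not carry over to them or to genes with few counts.

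Named genes are METTL14 and METTL3, preset key members of the gene lists, the largest called rise and fall in each list with a mean of at least 50 counts, and the 10 largest rises and falls with a mean of at least 100 counts and groups without overlap. CXCL10, COL6A2, SKIL and GREM1 were named after their values were seen. The comparison, the lists and their members were chosen with earlier results of these data known. The study describes the fastGRO-seq replicates as biologically independent experiments. Replicate numbers did not pair the libraries (correlation of deviations 0.0095 between control and shMETTL14). Promoter windows and their coordinates are of GRCh38.p14, other coordinates of hg19. The shMETTL3 libraries entered the fit and are not described. A few genes that this rule picks are not reported here.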

Additional observations from a re-analysis of the deposited data

Results flagged for a closer look

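For 6 list members the senescent groups lay on opposite sides of control, each side passing the test, and the groups differed directly by edgeR's quasi-likelihood test. Only list members were searched. The share of all tested genes with such calls was not counted, so the number does not show whether this is unusual. Log2 differences of shMETTL14 from shControl were -3.42 for the interferon-inducible chemokine CXCL10, -2.33 for IGFBP5, 0.88 for MDM2, -1.09 for the type VI collagen gene COL6A2, -1.43 for SKIL, a repressor of SMAD signalling, and -1.23 for the BMP antagonist GREM1. MDM2 was higher than control with shMETTL14 and lower with shControl, and the other 5 were lower than control with shMETTL14 and higher with shControl.

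CXCL10 rests on few reads, with 7.08 and 12.2 normalized counts in control, 31.9 and 25.6 with shControl and 0.999 and 4.21 with shMETTL14. GREM1 had 464 and 468 in control, 841 and 708 with shControl and 292 and 369 with shMETTL14. SKIL had 100.07 and 93.2 in control, 167 and 169 with shControl and 46.0 and 79.0 with shMETTL14. COL6A2 had 3315 and 3015 in control, 4439 and 4184 with shControl and 1927 and 2116 with shMETTL14. Against control, the calls of CXCL10 and SKIL were lost without control replicate 2 (log2 -1.42 and -0.68) or shMETTL14 replicate 1 (log2 -1.16 and -0.27), that of SKIL also without control replicate 1 (log2 -0.58), that of GREM1 without shMETTL14 replicate 1 (log2 -0.32) and that of MDM2 without control replicate 1 (log2 0.46) or with scaling by library size alone (log2 0.35). The calls of CXCL10 and SKIL against control were also lost in the DESeq2 Wald test (log2 -1.90 and -0.63) and at an adjusted p below 0.01. On the shControl side, scaling by library size alone left only MDM2 called and moved COL6A2 to log2 -0.0523 from 0.45, with IGFBP5 at 0.21, GREM1 at 0.23, SKIL at 0.30 and CXCL10 at 1.06, none of them passing. The shControl calls of COL6A2 and MDM2 were also lost without any of the 4 control and shControl libraries in turn (log2 0.38 to 0.52 and -0.46 to -0.28), and that of CXCL10 without control replicate 1 (log2 1.23), shControl replicate 1 (log2 1.41) or shControl replicate 2 (log2 1.73). In the DESeq2 Wald test CXCL10 and MDM2 did not pass on that side (log2 1.58 and -0.37), and MDM2 also missed with RLE size factors, without a filter, without the ribosomal RNA rows and with protein-coding rows alone.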

How the results depend on the processing

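Counts against control stayed within 1.5 times under 16 of the 17 other settings tried for each direction. When calls also had to reach a log2 fold change of 1 in size they were 1347 higher and 1650 lower. The DESeq2 Wald test gave 1771 and 1837. The direct counts against shControl moved more: 568 and 935 with the DESeq2 Wald test, 3239 and 725 with library size alone, 656 and 975 with an adjusted p below 0.01, 518 and 753 when calls also had to reach a log2 fold change of 1 in size. Leaving out 1 library gave 501 to 880 genes higher and 824 to 1269 lower. A block on the replicate number gave 2573 higher and 2649 lower against control and 1239 and 1589 against shControl. The numbers, which did not pair the libraries, thus changed none of these counts over all genes by 1.5 times. Among list members higher than shControl, the block moved glycolysis from 3 to 5 and cholesterol and fatty acid synthesis from 1 to 2. Without the shMETTL3 libraries, an alternative chosen after seeing the data, the counts were 2957 and 3013 against control and 1674 and 1935 against shControl, and with protein-coding rows alone, likewise added, 2281 and 2406, and 993 and 1537.

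Of the values of named genes, 4 against control and 7 against shControl changed sign, none of them a call in the fit reported. Under library size alone the difference from shControl was 0.22 for GDF15 and 0.11 for PLAUR. Over the libraries left out, it ranged from -0.0215 to 0.28 for CSF3, -0.0768 to 0.17 for EREG, -0.0803 to 0.26 for SERPINB2 and -0.0178 to 0.72 for TAGLN, and against control from -0.0142 to 0.40 for CDKN2A, -0.86 to 0.48 for PLAT and -0.22 to 0.0825 for METTL3. At an adjusted p below 0.01, calls against control were lost for CEBPD, CTGF, CXCL10, GLB1, HEY1, SKIL and VIRMA, and against shControl for COL1A1, HMGB2, LMNB1 and SPRY2. Requiring a log2 fold change of 1 in size removed 11 calls of named genes in either comparison. The called rise of COL6A2 with shControl over control changed sign with library size alone (-0.0523). Of 680 counts of list members under the alternatives, 602 stayed within 1.5 times against control, 514 against shControl and 563 for shControl against control, whose alternatives were added after seeing the data. The cause was not tested. With 2 libraries a group and 1513930 to 2048475 counts outside ribosomal RNA, genes with few counts could change without passing.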

Other observations

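Gene length went with the direction of change. Over quintiles of length among all tested genes, the share lower than control rose from 11.5% in the shortest class, up to 10.7 kb, to 33.3% in the longest, above 103.1 kb, while the share higher was 23.8% and 20.2%. The median raw count also rose, from 25.5 to 152.2, so that longer genes had more counts behind their tests. The median log2 fold change went from 0.24 to -0.15 across these classes with shMETTL14 and from 0.08 to -0.13 with shControl. Among protein-coding genes alone the shares lower were 11.8% and 34.2%. The part of length in the results on collagens and mitosis was not tested.

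Of 59 tested small nucleolar RNA rows, 30 were higher than control and 0 lower at an adjusted p below 0.05 in edgeR's quasi-likelihood test, with a median log2 fold change of 1.39, beside 0.94 with shControl. Of 8 small nuclear RNA rows, 3 were higher and 0 lower (median 1.62, beside 0.16 with shControl), and the 1 scRNA row was higher (log2 0.42). The small nucleolar RNA rows are short and mostly lie in introns of other genes, whose reads they share. Noncoding RNA rows had 22.4% higher and 17.9% lower, close to protein-coding genes at 19.6% and 21.1%.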
